A study of Mus musculus with 6 samples.

Results

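The genes described here encode the dystrophin complex and the Popeye proteins of the muscle cell membrane. They are Dmd, Dag1, Sgca, Sgcb, Sgcd, Sgce, Sspn, Sntg2, Popdc2 and Popdc3, 10 of the 18193 genes with a symbol of their own on the array, and 20 of its 45037 probe sets other than controls carry one of these symbols alone. RNA was measured on 6 Affymetrix MOE430 arrays from cells of newborn mouse bladder, 3 for each of 2 sorted populations. All cells came from male FVB/N mice at postnatal day 2 that carried both SMGA/EGFP, a green reporter driven by the smooth muscle gamma actin promoter, and SMAA/EYFP, a yellow reporter driven by the smooth muscle alpha actin promoter. Cells positive for EGFP and EYFP are called double-positive here, and cells positive for EGFP but negative for EYFP are called single-positive. The sort therefore went by 2 transgenic promoters rather than by the endogenous genes, and both populations are labelled as detrusor, the muscle of the bladder wall. Samples were not pooled, but the labels do not state whether replicate arrays stand for separate animals, so p-values here rest on a spread between samples that may be technical. The comparison asks how the membrane skeleton of the cells with both reporters differs from that of the cells with the gamma actin reporter alone. The 10 genes were chosen from the signal differences between these same 2 groups, so their differences are given as a description, with no test.

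Dystrophin is a long rod-shaped protein that ties the actin cytoskeleton to a complex in the plasma membrane, the sarcolemma of a muscle cell. Dystroglycan spans the membrane and binds laminin outside the cell, the sarcoglycans and sarcospan sit beside it, and syntrophins and dystrobrevins gather signalling proteins on the inner face. Loss of dystrophin or of sarcoglycans causes muscular dystrophy in humans and mice. In smooth muscle epsilon-sarcoglycan is a common member of the sarcoglycan group, whereas alpha-sarcoglycan is best known from skeletal and heart muscle. Popeye proteins are membrane proteins that bind cyclic AMP and are abundant in skeletal, heart and smooth muscle.

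The 10 genes did not behave as one group. Sntg2, Sgca, Popdc2 and Popdc3 had signals 15.9-fold to 48.6-fold lower in the double-positive arrays, and on each of their probe sets every double-positive value lay below every single-positive value. Sgcd was 1.72-fold lower in the mean, without overlap. Dmd was 1.83-fold and 2.06-fold lower in the mean on its brighter probe sets, with overlap on the first of these. Dag1, Sgce, Sgcb and Sspn had values in the double-positive arrays that overlapped those in the single-positive arrays on their brightest probe sets. Of the 20 probe sets, 17 had a mean above the level used to set aside dim probe sets, a signal of about 87.6, which is called the dim limit below. In the fit across all probe sets, 4 of these 17 were called lower in the double-positive arrays and 0 higher, where 3.42% of all probe sets tested were called, 2.42% lower and 1.01% higher. On 7 of the 20 every double-positive array was below every single-positive array, which held for 7.78% of all probe sets, and on none was the order reversed, which held for 8.1% of all. The members were picked with this contrast in view, and Sgca entered the fit only through its single-positive values, so nothing is read from these counts. Fewer cells of a type that expresses a gene and less of its RNA per cell cannot be told apart in such arrays.

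**Figure D1:**
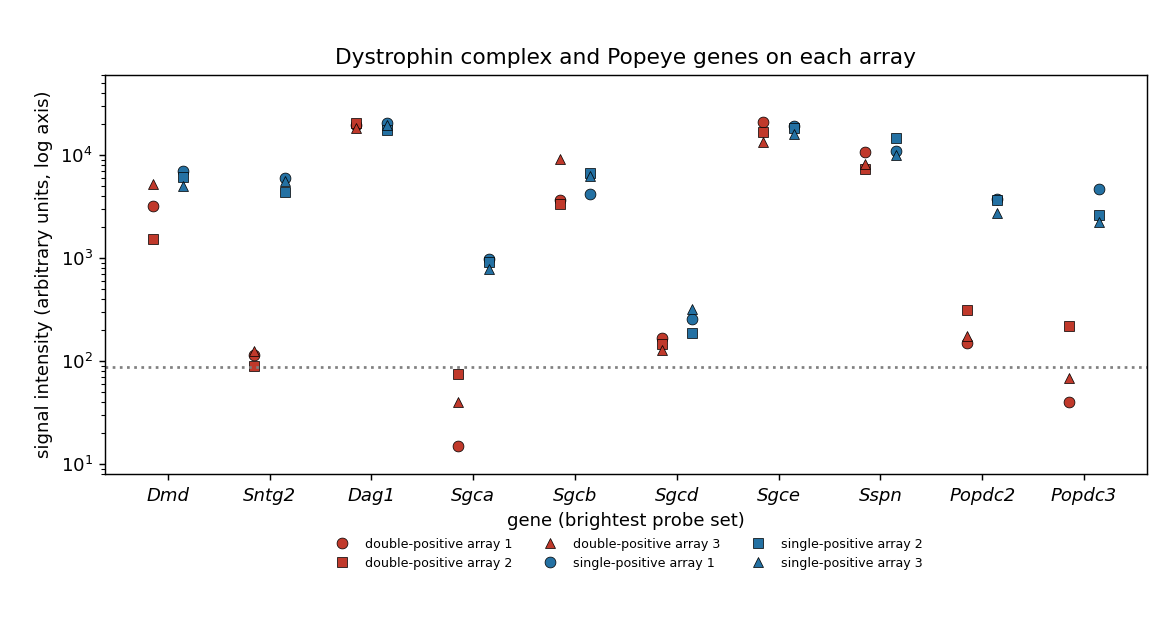
Signal intensity of each gene on its brightest probe set, in arbitrary units on a log axis, with double-positive arrays in red at the left and single-positive arrays in blue at the right of each gene; each point is 1 array and the dotted line is the dim limit. The double-positive points of Sgca lie below that line, those of Sntg2 and Popdc2 lie above it, at 89.5 to 127 and 149 to 311, and those of Popdc3 lie on both sides, while Dag1, Sgce and Sspn lie at similar heights in both populations.

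Dmd encodes dystrophin. Its probe sets are named here in order of brightness, and the second gave 2745, 2079 and 2797 in the double-positive arrays 1, 2 and 3, against 5890, 5958 and 3880 in the single-positive arrays, and the groups did not overlap. The log2 difference, double-positive minus single-positive, was -1.02 (SE 0.25 in the limma fit). The brightest gave 3188, 1527 and 5242 in the double-positive arrays and 7057, 6170 and 5032 in the single-positive arrays. Its log2 difference was nearly the same at -1.03 (SE 0.41), but the groups overlapped through double-positive array 3. Without that array the log2 difference was -1.44, and without double-positive array 2 it was -0.56. The signal of the brightest over that of the second was 1.16, 0.734 and 1.87 in the double-positive arrays and 1.20, 1.04 and 1.30 in the single-positive arrays. The ratio of 3' to 5' signal of the Actb control, a sign of how far amplified RNA reaches from the 3' end, was also lowest on double-positive array 2 (2.78) and highest on double-positive array 3 (8.02), with single-positive arrays between 3.23 and 5.97. The same ratio of the Gapdh control was 17.2 on double-positive arrays 1 and 2 and 23.9 on array 3, against 15.2, 11.8 and 20.6 in the single-positive arrays, so it was also highest on double-positive array 3 but lowest on single-positive array 2. Their part in the ratio of the Dmd probe sets was not tested. The remaining 2 Dmd probe sets were below the dim limit on all 6 arrays. Shorter dystrophins are made from promoters inside the gene, and the array table does not say which transcripts a probe set reads.

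The promoter window of Dmd at chrX:82948620-82948919 on the plus strand (GRCm38.p6, RefSeq) is shown because it is the only one of the genes' windows with a CArG box, the site bound by serum response factor, and with a MEF2 site. Capitals mark, in order, a MEF2 site, an E-box, the CArG box and 2 further E-boxes.
Dmd promoter window: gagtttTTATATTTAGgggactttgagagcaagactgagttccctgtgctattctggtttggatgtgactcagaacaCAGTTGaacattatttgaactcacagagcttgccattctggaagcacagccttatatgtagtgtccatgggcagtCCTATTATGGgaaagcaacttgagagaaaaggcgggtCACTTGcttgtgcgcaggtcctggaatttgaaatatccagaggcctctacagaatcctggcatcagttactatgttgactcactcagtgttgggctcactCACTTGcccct

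Sntg2 encodes gamma-2-syntrophin, an adaptor that binds dystrophin and its relatives. Its only probe set gave 114, 89.5 and 127 in the double-positive arrays, against 6058, 4391 and 5632 in the single-positive arrays. All 3 double-positive values lay just above the dim limit and close to each other, and none came near the single-positive values. The means were 110.2 ± 19.0 and 5360.1 ± 866 (SD, n = 3 each), a signal 48.6-fold lower in the double-positive arrays, with a log2 difference of -5.31 (SE 0.31). The window of a Sntg2 start at chr12:30373327-30373626 on the minus strand is shown, as are those of Sgca and Popdc2 below, because their signals differed most among the genes with a window. Capitals mark its only motif, an E-box.
Sntg2 promoter window: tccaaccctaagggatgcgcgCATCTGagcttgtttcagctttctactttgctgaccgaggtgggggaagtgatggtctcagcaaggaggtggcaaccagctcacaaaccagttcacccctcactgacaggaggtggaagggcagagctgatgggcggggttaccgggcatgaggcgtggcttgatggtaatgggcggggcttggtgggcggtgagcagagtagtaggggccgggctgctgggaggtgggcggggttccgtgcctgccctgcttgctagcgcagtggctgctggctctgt

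Dag1 encodes dystroglycan, which is cut into the alpha subunit that binds laminin and the beta subunit that binds dystrophin. On its brightest probe set the double-positive arrays gave 19484, 20547 and 18335 and the single-positive arrays gave 20519, 17503 and 19639. These values overlapped, and the log2 difference was 0.02 (SE 0.15). The other 3 Dag1 probe sets had log2 differences of -0.32, -0.06 and -0.44. On the second of its probe sets by brightness the groups did not overlap, with 824 to 1097 in the double-positive arrays and 1134 to 1239 in the single-positive arrays. Averaged over its probe sets Dag1 had a log2 difference of -0.20. The window of a Dag1 start at chr9:108263909-108264208 on the minus strand is shown as the one from a gene with similar signal in both populations. Capitals mark its only motif, an E-box.
Dag1 promoter window: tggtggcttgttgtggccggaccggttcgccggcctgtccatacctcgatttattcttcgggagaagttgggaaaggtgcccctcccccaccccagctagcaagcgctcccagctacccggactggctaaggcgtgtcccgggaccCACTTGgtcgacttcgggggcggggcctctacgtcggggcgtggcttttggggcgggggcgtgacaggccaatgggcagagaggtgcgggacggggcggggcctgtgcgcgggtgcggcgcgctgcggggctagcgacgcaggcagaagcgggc

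Sgca encodes alpha-sarcoglycan. Its signal was 15.05, 75.1 and 39.9 in the double-positive arrays and 973, 909 and 790 in the single-positive arrays. Every double-positive value was below the dim limit, and every single-positive value was far above it. The means were 43.4 ± 30.2 and 890.9 ± 92.7 (SD, n = 3 each), 20.5-fold lower in the double-positive arrays, and the log2 difference was -3.84 (SE 0.49). Because the double-positive values were dim, the size depends on the offset added before taking logs, from -4.59 with an offset of 1 to -2.81 with an offset of 100. The Sgca window lies at chr11:94976278-94976577 on the minus strand, and capitals mark its 2 E-boxes.
Sgca promoter window: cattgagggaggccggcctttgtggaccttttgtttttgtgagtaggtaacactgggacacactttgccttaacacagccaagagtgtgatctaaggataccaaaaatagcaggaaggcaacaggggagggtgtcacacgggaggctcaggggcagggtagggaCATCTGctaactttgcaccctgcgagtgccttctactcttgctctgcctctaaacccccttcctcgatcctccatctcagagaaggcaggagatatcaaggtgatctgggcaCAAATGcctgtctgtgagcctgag

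Sgce encodes epsilon-sarcoglycan, the closest relative of alpha-sarcoglycan and an imprinted gene expressed from the paternal copy. On its bright probe set the double-positive arrays gave 21008, 16920 and 13357, and the single-positive arrays gave 18945, 18420 and 15950. The double-positive values lay on both sides of the single-positive ones, and the log2 difference of -0.08 (SE 0.20) was smaller than the spread between arrays. It was -0.24 without double-positive array 1 and 0.09 without double-positive array 3. The paralogs thus had different patterns in the same arrays, with Sgca below the dim limit on every double-positive array and Sgce at 17095 ± 3829 across double-positive and 17772 ± 1600 across single-positive arrays (SD, n = 3 each). A second Sgce probe set was below the dim limit on average.

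Sgcb and Sgcd encode beta- and delta-sarcoglycan, which assemble with each other at the core of the sarcoglycan group. The brightest Sgcb probe set gave 3643, 3372 and 9158 in the double-positive arrays and 4158, 6662 and 6313 in the single-positive arrays. Double-positive array 3 was the highest of all 6 and the other double-positive arrays were the lowest, and the log2 difference was -0.21 (SE 0.39). It was -0.67 without double-positive array 3 and 0.05 without double-positive array 2, so its sign depended on a single array. The second Sgcb probe set showed the same array as highest, at 3353 against 2041 and 1757 in the other double-positive arrays and 2774 to 3199 in the single-positive arrays. The third did not, with 1983 on that array, 2366 and 2593 on the other double-positive arrays and 1704 to 2322 on the single-positive arrays. The log2 differences of the second and the third were -0.34 (SE 0.28) and 0.17 (SE 0.25). Sgcd was dim, with 168, 147 and 128 in the double-positive arrays and 256, 187 and 318 in the single-positive arrays. Its groups did not overlap, and the log2 difference was -0.67 (SE 0.44).

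Sspn encodes sarcospan, a membrane protein that associates with the sarcoglycans. On its brighter probe set it gave 10679, 7368 and 8116 in the double-positive arrays and 11052, 14715 and 9961 in the single-positive arrays. One double-positive array lay above the lowest single-positive array, and the log2 difference was -0.45 (SE 0.22). Its second probe set, close to the dim limit, had a log2 difference of -0.13 (SE 0.61).

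**Figure D2:**
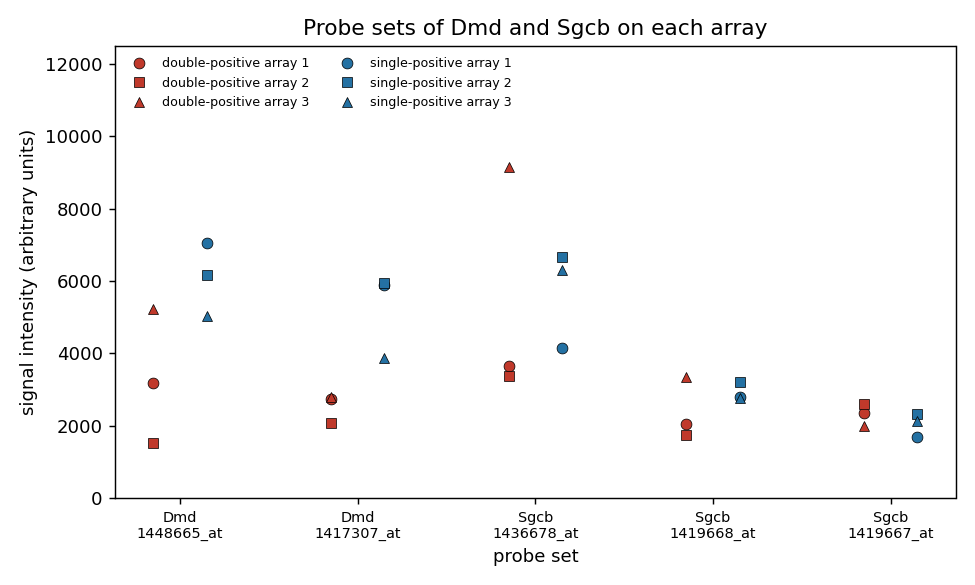
Signal intensity in arbitrary units of the Dmd and Sgcb probe sets above the dim limit, with double-positive arrays in red at the left and single-positive arrays in blue at the right of each probe set; the symbol shape gives the array number. Double-positive array 3 (red triangle) is the highest of the 6 arrays on the first and the second Sgcb probe sets from the left but not on the third, and the double-positive arrays are all below the single-positive arrays on the second Dmd probe set.

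Popdc2 encodes Popeye domain-containing protein 2, which in mice is needed for normal pacemaking in the heart. Its signal was 149, 311 and 175 in the double-positive arrays and 3764, 3630 and 2715 in the single-positive arrays. The groups lay far apart, with double-positive array 2 the highest of its group. The means were 212 ± 86.8 and 3370 ± 571 (SD, n = 3 each), 15.9-fold lower in the double-positive arrays, with a log2 difference of -3.89 (SE 0.35). The Popdc2 window at chr16:38361940-38362239 on the plus strand holds an MCAT element, the binding site of TEAD factors, whose last base is the first base of an E-box, and a further E-box spans the start site.
Popdc2 promoter window: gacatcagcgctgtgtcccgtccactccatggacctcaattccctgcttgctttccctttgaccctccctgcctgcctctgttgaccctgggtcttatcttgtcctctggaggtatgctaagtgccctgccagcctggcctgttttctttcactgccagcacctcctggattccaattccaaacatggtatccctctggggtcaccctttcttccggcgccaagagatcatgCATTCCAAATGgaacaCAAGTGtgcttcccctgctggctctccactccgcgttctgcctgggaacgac

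Popdc3 encodes a further Popeye protein. It gave 40.4, 217 and 68.9 in the double-positive arrays and 4717, 2599 and 2260 in the single-positive arrays. Again the groups lay far apart and double-positive array 2 was the highest of its group. The means were 109 ± 94.9 and 3192 ± 1332 (SD, n = 3 each), 29.3-fold lower in the double-positive arrays, with a log2 difference of -4.74 (SE 0.54). Only 1 of the 3 double-positive values was above the dim limit. No promoter window was used for Popdc3 or Sgce.

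**Figure D3:**
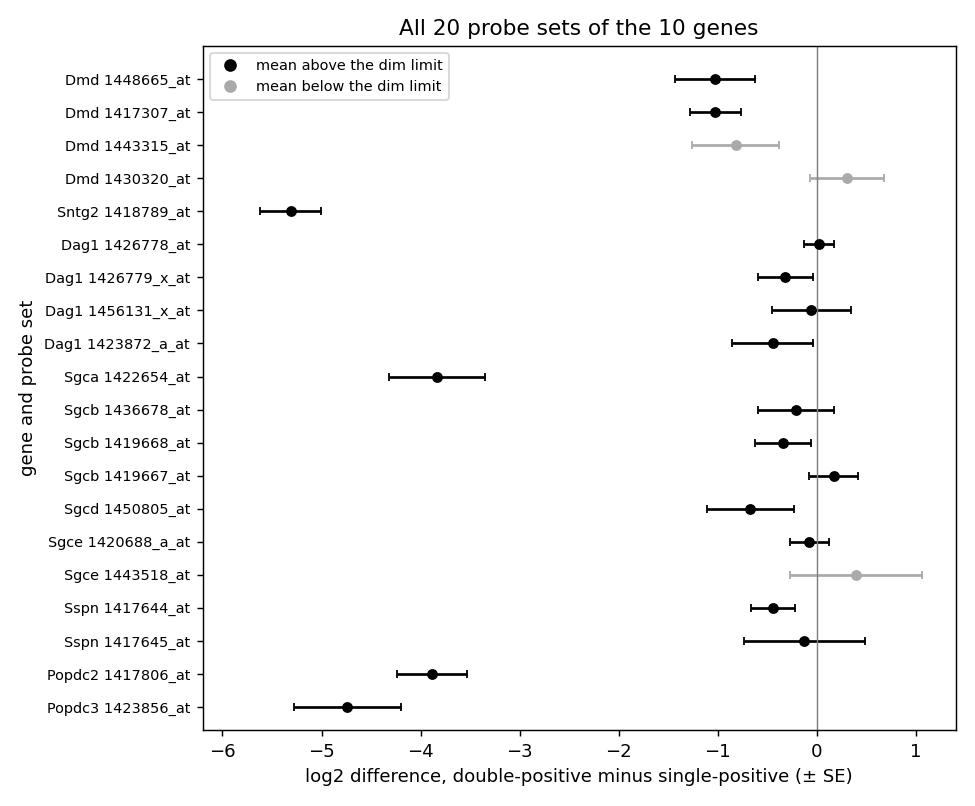
Log2 difference, double-positive minus single-positive, with its standard error from the limma fit for all 20 probe sets of the 10 genes; grey points are probe sets whose mean over the 6 arrays was below the dim limit. Sntg2, Sgca, Popdc2 and Popdc3 lie between -5.31 and -3.84, both brighter Dmd probe sets lie near -1, and the others lie between -0.67 and 0.17 apart from dim ones.

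The promoter windows run from 250 bases before to 50 bases after an annotated start and were taken from RefSeq (GRCm38.p6), which gave 12 windows for 8 of the 10 genes, the 2 windows of Sntg2 being offset by 1 base. They were searched on both strands for the CArG box and the MEF2 site, for the MCAT element (CATTCC) and for the E-box (CANNTG). A CArG box stood in 1 of the 12 windows, that of Dmd (CCTATTATGG, from base 153 of the window), and in 1.63% of all 32851 windows. A MEF2 site stood in the same Dmd window and in 3.19% of all windows. MCAT stood in 4 of the 12, those of Popdc2, Sgcd and both starts of Sspn, and in 14.7% of all windows. An E-box stood in 9 of the 12 and in 72.3% of all windows, so it is common. The number of CG dinucleotides differed between windows, with 4 for Sgca, 7 for Popdc2, 12 for each window of Sntg2 and 12 for Sgcd. Dmd had 2 and 14, Sspn 2 and 8, Sgcb 24 and Dag1 30 and 47. The median over all windows was 7. A motif match is only a description of these letters.

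Related genes that were not among the 10 were tested in the fit across 13464 genes, in which 857 (6.37%) passed an adjusted p of 0.05, 4.38% lower and 1.98% higher in the double-positive arrays. Of 9 further genes of the complex and the Popeye family on the array, 8 were tested, 2 fell, 0 rose and 6 did not pass in limma, and an unadjusted p of 0.05 gave the same 2 and 0. Their median log2 fold change was -0.08, beside 0.02 for all genes tested. The 2 that fell were Bves, the remaining Popeye gene, and Dtna, which encodes alpha-dystrobrevin, a relative of dystrophin that binds syntrophins. Bves had signals of 65.7, 162 and 669 in the double-positive arrays and 4105, 2902 and 2885 in the single-positive arrays. Double-positive array 3 was the highest of its group but stayed below every single-positive array. The log2 fold change was -3.85 (limma, SE 0.62, adjusted p = 0.00487). Its other probe set gave 14.5, 6.29 and 180 in the double-positive arrays and 4947, 2413 and 2847 in the single-positive arrays, with a log2 fold change of -5.69. Its double-positive mean was below the dim limit, so that this probe set entered the fit only through its single-positive values and adds no support. Popdc2 and Popdc3 were chosen from this contrast. Bves was not among the 10, but its list was drawn up with earlier results of these data known. Its test is therefore not independent of those results.

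Dtna had signals of 13.1, 23.4 and 189 in the double-positive arrays and 880, 624 and 584 in the single-positive arrays. Double-positive array 3 again stood above the others of its group. The log2 fold change was -3.27 (limma, SE 0.62, adjusted p = 0.0111), and with a double-positive mean of 75.04, below the dim limit, it was tested only through its single-positive values. Of its other probe sets 3 were tested and did not pass, with log2 fold changes from -2.49 to -0.87. Utrn, which encodes utrophin, the autosomal relative of dystrophin, gave 16043, 16519 and 16789 in the double-positive arrays and 13287, 15729 and 8974 in the single-positive arrays. The groups did not overlap, but the log2 fold change of 0.41 (SE 0.22) did not pass (limma adjusted p = 0.373). Averaged over its probe sets it was -0.01, but the other Utrn probe sets had means below the dim limit. Nos1, the neuronal nitric oxide synthase that is anchored to the complex in skeletal muscle, had a log2 fold change of -0.75 (SE 0.36), with 483 to 560 across double-positive and 655 to 1332 in single-positive arrays, and did not pass. It was 0.11 averaged over its probe sets, but the other Nos1 probe sets had means below the dim limit. Sntb1 and Sntb2, the beta-syntrophins, had -0.04 (SE 0.69) and 0.06 (SE 0.45), and Sntb1 ranged from 180 to 2010 among the double-positive arrays, the highest being array 3. Dtnb (beta-dystrobrevin) had 0.33 (SE 0.48) and Drp2 (dystrophin-related protein 2) had -0.11 (SE 0.40). The sign of Sntb1, Sntb2, Dtnb and Drp2 changed in some alternatives, and Sntg1 was too dim to be tested.

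**Figure D4:**
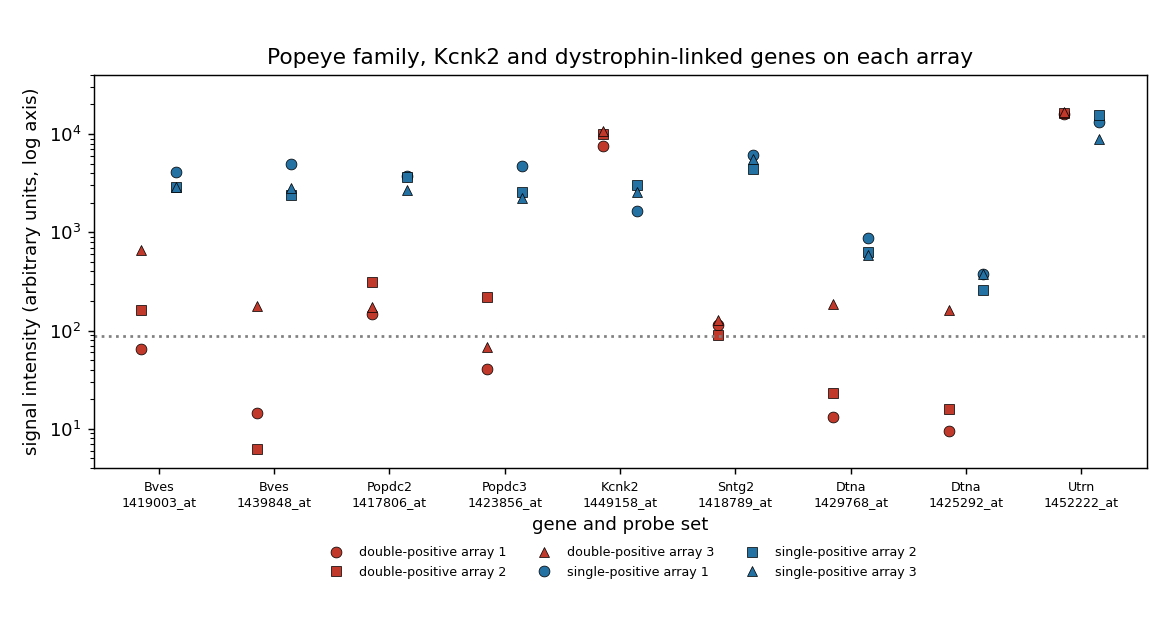
Signal intensity, in arbitrary units on a log axis, of the Popeye genes Bves, Popdc2 and Popdc3, the channel gene Kcnk2, and Sntg2, Dtna and Utrn of the dystrophin complex, with double-positive arrays in red at the left and single-positive arrays in blue at the right; the dotted line is the dim limit. All Popeye, Sntg2 and Dtna points of double-positive arrays lie below those of single-positive arrays, whereas Kcnk2 and Utrn lie above.

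Kcnk2 encodes TREK-1, a potassium channel that Popeye proteins can bind, and it was listed with other sarcolemma genes. It went the other way from the Popeye genes, with 7599, 9957 and 10641 in the double-positive arrays and 1652, 3062 and 2593 in the single-positive arrays. The groups did not overlap, and the log2 fold change was 1.97 (limma, SE 0.28, adjusted p = 0.00233). In this list of caveolae, the integrin link and membrane repair, 4 of 17 tested genes fell, 2 rose and 11 did not pass, with a median log2 fold change of -0.27. The genes that fell numbered 2 without single-positive array 2 or 3. Dysf, which encodes the membrane repair protein dysferlin, gave 6.06, 17.1 and 127 in the double-positive arrays and 589, 680 and 626 in the single-positive arrays (log2 fold change -3.49, with limma SE 0.58 and adjusted p = 0.0055). Its double-positive mean of 50.1 was below the dim limit, so it was tested only through its single-positive values. Cav3, the caveolin of muscle, gave 22.0, 24.6 and 298 in the double-positive arrays and 1235, 822 and 817 in the single-positive arrays. In both genes double-positive array 3 was well above the other double-positive arrays and below every single-positive array. The log2 fold change of Cav3 was -3.41 (limma, SE 0.68, adjusted p = 0.0145). Its mean log2 value over the double-positive arrays was below the dim limit, so it too was tested only through its single-positive values. Cav3 did not pass when double-positive array 2 or any 1 single-positive array was left out, with limma adjusted p from 0.0536 to 0.0564. The calls of Dtna, Dysf and Cav3 therefore add no support to the counts of their lists.

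The caveolins found in many tissues, Cav1 and Cav2, also fell. Cav1 averaged 34918 ± 4605 across double-positive and 63368 ± 6972 across single-positive arrays (SD, n = 3 each), with a log2 fold change of -0.86 (limma, SE 0.14, adjusted p = 0.00551), which did not pass with median centring or with no variance trend. Cav2 had a log2 fold change of -1.78 (limma, SE 0.35, adjusted p = 0.0127) and did not pass without single-positive array 2 or 3 (limma adjusted p = 0.0712 and 0.0668). Its other, dimmer probe set had -0.53 and did not pass in the fit across probe sets (limma, SE 0.43, adjusted p = 0.698). Myof, which encodes myoferlin, a relative of dysferlin, rose by a log2 fold change of 1.00 (limma, SE 0.24, adjusted p = 0.0341). It is named after its values were seen, and it passed without double-positive array 3 but not without any other 1 array (limma adjusted p from 0.0629 to 0.149). Vcl, which encodes vinculin of the integrin link, averaged 45828 ± 4119 across double-positive and 62430 ± 4901 across single-positive arrays (SD, n = 3 each) and did not pass (log2 fold change -0.45, with limma SE 0.12 and adjusted p = 0.0656).

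Of 13 tested genes for the enzymes that build the laminin-binding sugar chain of dystroglycan, 0 passed in limma in either direction, and at an unadjusted p of 0.05 there was 1, Pomt2, an O-mannosyltransferase named after its values were seen (log2 fold change 0.76, SE 0.31). The median log2 fold change was 0.07. Rxylt1, a xylosyltransferase of this chain, averaged 13159 ± 1681 across double-positive and 9863 ± 1904 across single-positive arrays (SD, n = 3 each), with a log2 fold change of 0.43 (SE 0.20), and Dpm1, a subunit of dolichol phosphate mannose synthase, had 0.07 (SE 0.21). Of the 10 genes for laminins and other matrix ligands, 1 fell, 1 rose and 8 did not pass. Lama5, the laminin alpha-5 chain, gave 368, 639 and 423 in the double-positive arrays and 1407, 1812 and 1392 in the single-positive arrays. Its log2 fold change was -1.67 (limma, SE 0.34, adjusted p = 0.0158), and it did not pass when double-positive array 1, single-positive array 2 or single-positive array 3 was left out (limma adjusted p from 0.0560 to 0.0818). The second Lama5 probe set by brightness had -1.42 and did not pass in the fit across probe sets (limma, SE 0.35, adjusted p = 0.0667). Egflam, which encodes the dystroglycan ligand pikachurin, averaged higher in the double-positive arrays by a log2 fold change of 0.85 (limma, SE 0.22, adjusted p = 0.0474). That call was lost without any 1 array other than double-positive array 3 (limma adjusted p from 0.111 to 0.170). Lama2, the laminin alpha-2 chain of muscle, averaged 36524 ± 5149 across double-positive and 29095 ± 3461 across single-positive arrays (SD, n = 3 each) and Lamb1 had a log2 fold change of 0.08 (SE 0.14). Neither passed.

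**Figure D5:**
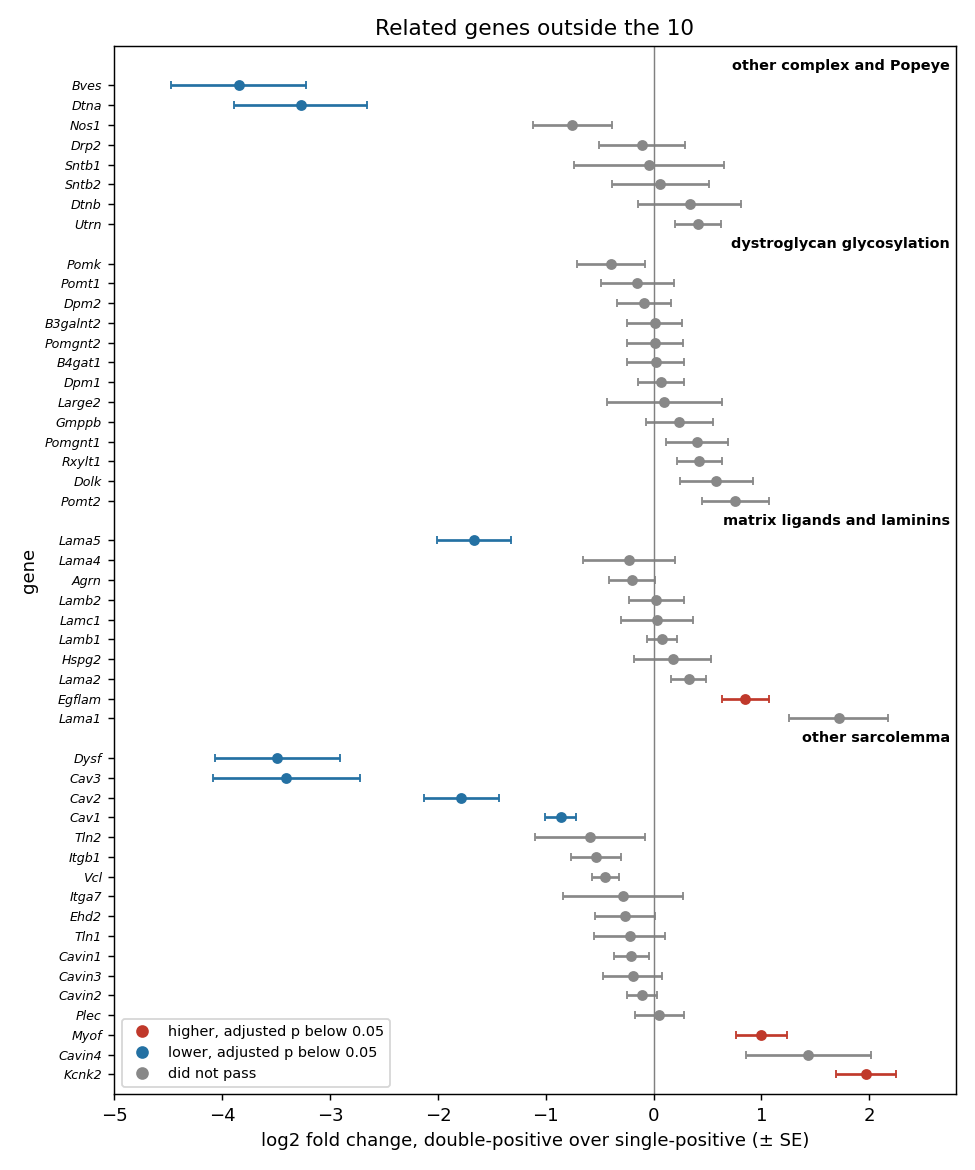
Log2 fold change, double-positive over single-positive, with its standard error for the tested genes of 4 related lists; red and blue mark genes that were higher or lower past a limma adjusted p of 0.05 and grey marks the others. Bves, Dtna, Dysf and Cav3 lie beyond -3, Kcnk2 lies near 2, and no gene of the glycosylation list is coloured. Dtna, Dysf and Cav3 had double-positive mean log2 values below the dim limit and were tested only through their single-positive values.

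Both populations carried smooth muscle transcripts, and the genes of the reporters were read beside the sort. Actg2 averaged 10595 ± 3281 across double-positive and 60131 ± 8405 across single-positive arrays (SD, n = 3 each). Acta2 averaged 59801 ± 11165 across double-positive and 62346 ± 9277 across single-positive arrays (SD, n = 3 each) on its brightest probe set. Another Acta2 probe set gave 371 ± 92.5 and 7770 ± 1667 (double-positive and single-positive, SD, n = 3 each). The remaining Acta2 probe set gave 114 ± 99.1 and 914 ± 444, likewise. No Acta2 probe set had a higher mean in the double-positive arrays, so endogenous Acta2 signal did not follow the EYFP sort. The reason was not tested. The signals of 12 smooth muscle genes summed to 193714 to 241326 in the double-positive and 389864 to 495706 in the single-positive arrays. Of these 12, 9 fell and none rose. The highest by mean log2 signal were Acta2 and Cald1 (caldesmon), and neither of them passed. Pearson's r between arrays over probe sets was 0.935 to 0.948 within the double-positive, 0.950 to 0.956 within the single-positive group and 0.921 to 0.942 between groups.

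Many but not all markers of other cell types were also lower in the double-positive arrays. Of 25 markers of skeletal and heart muscle, 20 were tested, 6 fell and 0 rose. They summed to 2651, 5851 and 13273 in double-positive arrays 1, 2 and 3 and to 16779 to 22923 in the single-positive arrays. The highest by mean log2 signal were Tnnt1, slow troponin T (473 ± 349 across double-positive and 3763 ± 548 across single-positive arrays, SD, n = 3 each), and Ckm, muscle creatine kinase (220.4 ± 104 and 3261 ± 877, likewise). The satellite cell gene Pax7, too dim to be tested, had 3.91, 3.82 and 3.03 in the double-positive arrays and 3.98, 188 and 334 in the single-positive arrays, and Myog, a factor of muscle differentiation, had a log2 fold change of -0.96 and did not pass. Other markers of this list went the other way. Myf5, also too dim to be tested, had 159, 252 and 39.35 in the double-positive arrays and 18.7, 25.2 and 18.6 in the single-positive arrays. Mylpf had a log2 fold change of 0.88 and did not pass. Of the 20 tested, 16 had a negative log2 fold change. Pax7, Myog, Myf5, Mylpf and Myh3, embryonic myosin, are named after their values were seen. The high sum of double-positive array 3 came with a Myh3 signal of 5788. On this array 13 of the 25 markers were highest in the double-positive group. The same held for 7 of the 9 further complex genes, Bves, Dtna and Utrn among them, and 4 of the 18 other sarcolemma genes, Dysf, Cav3 and Kcnk2 among them. Of the 10 genes it held for the brightest probe sets of Dmd and Sgcb and for Sntg2, whose double-positive values were all just above the dim limit. The share over all genes was not counted. Tnnt1 and Ckm were highest in that group on double-positive array 2. So were Popdc2 and the brightest probe set of Dag1, whereas Sgcd and the brightest probe sets of Sgce and Sspn were highest on double-positive array 1. Sgca and Popdc3 also had their highest double-positive value on array 2. Sgca was below the dim limit on every double-positive array and Popdc3 on arrays 1 and 3, so their order is not reliable. Of leukocyte markers 14 of 17 tested fell, with sums of 16335 to 23605 across double-positive and 106884 to 147261 in single-positive arrays. Of nerve and Schwann cell markers 7 of 12 fell, with sums of 2383 to 3681 across double-positive and 16053 to 20039 in single-positive arrays. Of urothelium markers 10 of 18 fell, with sums of 6011 to 10439 across double-positive and 31317 to 51848 in single-positive arrays. Of endothelium markers 7 of 14 fell, with sums of 12289 to 18190 across double-positive and 45298 to 53806 in single-positive arrays. Without single-positive array 2 or 3 the urothelium count was 6 and the endothelium count 4. In limma 0 genes of these lists rose, also at an unadjusted p of 0.05, and no marker was at 0 on any array. Over all genes tested 4.38% fell. Among the markers that fell, Myh6, Snap25, Foxd3, Krt15 and Shh had double-positive mean log2 values below the dim limit. They were tested only through their single-positive values, so their part in these counts adds no support. The highest of each list by mean log2 signal were Csf1r and Mrc1 for leukocytes, Erbb3 and Gfra3 for nerve and Schwann cells, Krt8 and Krt18 for urothelium, and Lyve1 and Eng for endothelium. Of these Eng did not pass, with 4650 ± 546 across double-positive and 4009 ± 1116 across single-positive arrays (SD, n = 3 each). The part of these cell types in the values of the 10 genes was not tested.

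Genes whose log2 values over the 6 arrays were most like those of 2 members were found by Pearson's r, as a description only, since the arrays form 2 groups and any gene that differs between them scores highly. For Popdc2 these were Plekhd1, Mest, Plekhb2, Sgca and Actg2, with r from 0.996 to 0.999, and 541 of 13463 genes had an r above 0.9. Sgca, a gene of the list, thus ranked the fourth by likeness to Popdc2. For Dmd on its brightest probe set they were Gpr89, Flcn, Cycs, Pcdhb3 and Tapt1, with r from 0.989 to 0.994, and 301 genes had an r above 0.9. None of the members was among them.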

How the data were processed

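RNA from sorted bladder cells was amplified in 2 rounds, biotin-labelled and hybridised to arrays, per the labels' protocols. The deposited values are linear signal intensities per probe set. The authors' tool was GCOS, per the submitters' processing notes; its algorithm and version are not stated in those sources. The trimmed mean of every array was 1500.01, so the deposited intensities had been scaled. A probe set took its gene name from the platform annotation if that lists 1 symbol. An offset of 25.042 (the 20th percentile) was added to each signal before taking log2, and probe sets with a mean above the 40th percentile (6.82 on the log2 scale) were tested. The tests were made with limma 3.58.1 under R 4.3.3 (lmFit, then eBayes with a trend, two-sided, Benjamini-Hochberg over all 27022 probe sets, or over 13464 genes by their brightest probe set). The procedure was tested on simulated data. The members, lists and alternatives were chosen with earlier results of these data known. Named are all members, all further complex genes on the array, of other pathway lists the genes past the threshold (the 5 of smallest p where more passed) and the 2 of highest mean, of marker lists the 2 of highest mean, the 2 reporter genes, and for Dmd and Popdc2 the 5 genes most like them. No 2 arrays shared more than 13 values. Some listed genes are not reported here. The number of arrays limits the precision.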

Additional observations from a re-analysis of the deposited data

How the results depend on the processing

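In the report's fits 925 probe sets were called, 653 lower and 272 higher, and 857 genes, 590 lower and 267 higher. With array weights these were 1639, 1156 and 483 probe sets and 1345, 910 and 435 genes, and with no variance trend 163 probe sets were higher. Leaving out 1 array gave 400 to 1121 probe sets (262 to 784 lower, 123 to 337 higher) and 464 to 1082 genes (301 to 734 lower, 158 to 348 higher), with 517 probe sets when double-positive array 1 was left out and 569, 488 and 464 genes when single-positive array 1, 2 or 3 was. The 2 further complex genes that fell became 1 with the 60th percentile filter or averaged over probe sets, since Dtna was then not tested. Matrix ligands that rose numbered 2 with quantile normalization, an offset of 100 or averaged probe sets, 0 with an offset of 1, no filter or no variance trend, and 0 to 1 without 1 array, while those that fell numbered 0 to 1. Other sarcolemma genes that rose numbered 1 with median centring, no variance trend or averaged probe sets and 1 to 2 without 1 array. Those that fell numbered 2 to 4 without 1 array and 5 with quantile normalization or with the replicate number as a block. Same-numbered arrays did not clearly deviate together (r of 0.09, 0.03 and -0.07), and only double-positive array 1 was closest to its own number. Pairing by number was thus not seen, but so few arrays cannot exclude it. With the replicate number as a block, 1014 genes and 897 probe sets were called, and Egflam did not pass (limma adjusted p = 0.0782). Signs turned for genes that had not passed, with a log2 fold change of 0.013 (median centring), 0.0223 (offset 100) and 0.083 (averaged) for Sntb1, -0.0123 for Utrn and 0.11 for Nos1 (both averaged). Without 1 array Sntb1 ran from -0.92 to 0.74, Sntb2 from -0.20 to 0.42, Dtnb from -0.17 to 0.66 and Drp2 from -0.35 to 0.14. The cause was not tested for these changes, other than those of the filter and of averaging. Over 16 alternatives the log2 difference was -5.59 to -4.69 for Sntg2, -4.59 to -2.81 for Sgca, -4.17 to -3.50 for Popdc2, -5.28 to -4.00 for Popdc3 and -1.44 to -0.56 for Dmd. Signals below the dim limit give no reliable order.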
